A study of Mus musculus with 2 samples.

Results

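Glycolysis breaks glucose down to pyruvate, and several of its steps are carried out by closely related enzymes encoded by separate genes. The genes examined here are 9 such isoforms from 5 steps: the hexokinases Hk1 and Hk2, the phosphofructokinases Pfkl, Pfkm and Pfkp, the aldolases Aldoa and Aldoc, the pyruvate kinase Pklr and the lactate dehydrogenase Ldhb. They were taken as the probe sets whose platform annotation names exactly 1 gene symbol, where that symbol is 1 of the 9. A probe set is the group of oligonucleotides on the array that together read 1 transcript. This gave 24 probe sets, from 1 for Hk2 and Pfkm to 5 for Aldoa, and the 9 genes stand among 18193 genes measured in this way.

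The arrays carried RNA from wild-type C57Bl6 mouse embryos at E12.5. Mesothelial cells, the flat epithelium over the organ, were 1 array, and had been sorted from trypsin-digested liver by FACS for podoplanin (Pdpn). Liver cells of the same strain, genotype and age were the other array. Whether they had first been depleted of Pdpn-bearing cells, and how many embryos went into either RNA, is not given in the labels. With 1 array a group no difference was tested, and each value describes these 2 arrays only.

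The labels were checked against cell type markers. Mesothelial markers above the floor (defined with the counts) numbered 9. Beside 45.4% of all genes above the floor, all 9 were brighter on the mesothelial array by 2-fold or more. Pdpn, on which the cells had been sorted, was among them, at 3877 against 100, so its direction followed from the sort. The 10 markers measured, Pdpn included, summed to an intensity of 14759 on the mesothelial array against 545. The mesothelial array was not free of other cells' RNA. Hepatocyte markers summed to 73727 there and 49290 on the liver array, and erythroid markers to 10117 and 34252. These sums are as deposited, and by the median of all genes the mesothelial array was itself 1.58-fold brighter. Relative to that median, 0 of 8 hepatocyte markers passed 2-fold toward mesothelial or liver cells, beside 23.1% and 9.53% of all genes. Of 9 erythroid markers, 8 did so toward liver cells, beside the same 9.53%. Megakaryocyte markers summed to 24793 against 6858 and striated muscle markers to 4335 against 1374, and in each case the higher sum was that of the mesothelial array. Stellate markers (4949 against 793) and macrophage markers (7079 against 1891) were also higher there, and the granulocyte sum (2932 against 6940) was higher on the liver array. Of 7 granulocyte markers above the floor, 6 passed 2-fold toward liver cells, beside 3.83% of all genes. Mpo went the other way, at 2552 against 1477, and made up most of the mesothelial sum. So did Elane, under the floor, at 48.6 against 21.5 and a small part of that sum. The ratio of 3′ to 5′ control signal, a measure of RNA length, was 2.15 and 1.95 for Gapdh and 2.30 and 1.49 for Actb, in mesothelial and liver cells. In such mixed samples fewer cells of a type and less RNA per cell cannot be told apart.

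As background, the isoforms of a step catalyse the same reaction and differ in where they are made and how they are controlled. Pklr encodes the pyruvate kinases of liver and red cells, which are made from separate starts of the gene, the red cell start lying upstream, while Pkm encodes those of most other tissues. Ldhb encodes the H subunit and Ldha the M subunit of lactate dehydrogenase, which assemble into mixed tetramers. Pfkl, Pfkm and Pfkp are named for liver, muscle and platelet, and Aldoc is best known from brain. At E12.5 the liver is also the main site where red cells form.

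The 250 bases before 4 transcription starts are shown because Pklr and Ldhb were the isoforms that lay furthest from the typical gene, in opposite directions, and Ldha is the step partner of Ldhb. They come from RefSeq on GRCm38.p6, a build used for sequences and gene positions only, and each runs 5′ to 3′ toward the start. Capitals mark a match, on either strand, to ACGTG, the core of the element bound by the hypoxia-inducible factors, or to AGATAA, a form of the motif of GATA factors. The Pklr starts lie 481 bases apart on the plus strand, with windows at chr3:89135892-89136141 and chr3:89136373-89136622, in the order printed. The Ldhb window is chr6:142507958-142508207 on the minus strand, and that of Ldha, for the first of its 2 starts, chr7:46845554-46845803 on the plus strand.
Pklr upstream start: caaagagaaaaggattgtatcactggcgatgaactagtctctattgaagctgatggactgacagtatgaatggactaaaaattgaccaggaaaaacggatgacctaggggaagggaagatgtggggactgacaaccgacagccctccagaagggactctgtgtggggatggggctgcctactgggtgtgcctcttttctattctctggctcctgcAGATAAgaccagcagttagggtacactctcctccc
Pklr downstream start: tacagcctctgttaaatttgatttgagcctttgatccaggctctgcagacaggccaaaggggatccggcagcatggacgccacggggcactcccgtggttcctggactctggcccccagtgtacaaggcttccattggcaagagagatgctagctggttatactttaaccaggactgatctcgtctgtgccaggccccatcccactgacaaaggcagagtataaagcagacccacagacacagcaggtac
Ldhb start: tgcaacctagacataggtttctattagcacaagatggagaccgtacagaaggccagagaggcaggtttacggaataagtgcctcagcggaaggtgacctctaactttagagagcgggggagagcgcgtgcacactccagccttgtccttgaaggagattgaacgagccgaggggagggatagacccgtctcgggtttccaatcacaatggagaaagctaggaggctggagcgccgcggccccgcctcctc
Ldha first start: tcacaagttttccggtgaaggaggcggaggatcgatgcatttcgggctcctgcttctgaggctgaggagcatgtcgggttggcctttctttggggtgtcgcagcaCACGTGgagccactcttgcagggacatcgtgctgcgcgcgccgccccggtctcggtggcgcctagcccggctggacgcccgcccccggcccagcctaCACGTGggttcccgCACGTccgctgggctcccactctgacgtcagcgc

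The upstream Pklr window held AGATAA 35 bases before the start, and the downstream window held neither motif. The Ldha window held ACGTG at 3 places, 2 of them palindromes read on both strands, and the Ldhb window held none. Over all 9 genes the table has 17 windows, of which 5 held ACGTG (in Hk2, Aldoa and Pfkm) and 4 held AGATAA (in Pklr and Pfkm). Of all 32851 windows of this length, 16.6% held ACGTG and 9.99% AGATAA. A match is a description of these letters and not evidence of binding, and some windows of Aldoa and Pfkm overlap.

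Most of the 9 isoforms read brighter on the mesothelial array, but so did most genes. A gene with several probe sets was given the value of its brightest, and a difference is its log2 intensity on the mesothelial array less that on the liver array. A gene was above the floor where it reached the median of all probe sets, 65.8 in mesothelial and 42.3 in liver cells, on at least 1 array. All 9 were above it, as were 21 of their 24 probe sets. Of the 9, Hk1, Hk2, Pfkp, Aldoc and Ldhb were brighter by 2-fold or more in mesothelial cells, beside 45.4% of all 12018 genes above the floor. In the direction of liver cells the count was 0 of 9, beside 3.83% of all genes.

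The median difference was 1.08 over the 9 isoforms, 0.66 over all genes measured and 0.90 over the 12018 above the floor. The median gene here is that of all genes measured, so genes above the floor lie somewhat to its mesothelial side. Relative to it, Ldhb was at least 2-fold to the mesothelial side, beside 23.1% of genes, and Pklr at least 2-fold to the liver side, beside 9.53%. Of the genes past 2-fold, 92.2% were higher in mesothelial cells as deposited, 81.4% after removing the difference of reference genes, 72.1% after centring on the array medians and 65.1% after quantile normalization. Hk1, Hk2, Aldoa, Aldoc and Ldhb stayed on the mesothelial side, and Pfkm and Pklr on the liver side, in every setting that was run for them. Hk2 and Pfkm have 1 probe set each, so only the scalings could move their values. Pfkm was even between the arrays as deposited and lay between -0.84 and -0.43 under the scalings. Hk1 fell to 0.30 with the median over its probe sets, which disagreed in sign. Pfkl turned to the liver side under each of these 3 scalings. Pfkp kept its side under them and turned with the median over its probe sets.

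**Figure D1:**
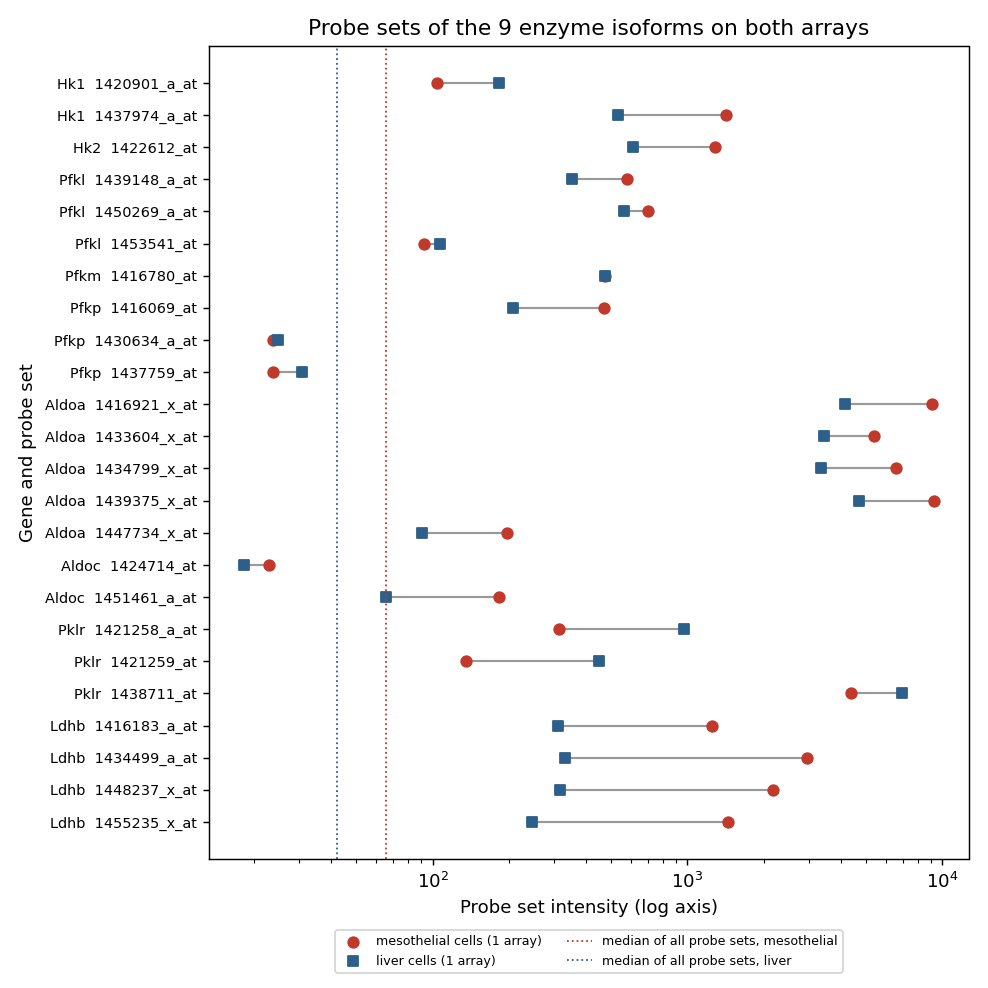
Intensity of the 24 probe sets of the 9 isoforms (log axis), with a circle for the mesothelial and a square for the liver array, joined by a line. Dotted lines are the medians of all probe sets, 65.8 and 42.3. The 4 Ldhb probe sets are all brighter in mesothelial cells and the 3 Pklr probe sets all brighter in liver cells, and those of Hk1 go opposite ways. Lengths of the joining lines can be compared, but positions of different probe sets cannot, since each has its own brightness.

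Ldhb, the H subunit of lactate dehydrogenase (chromosome 6, 142490249 to 142507957), lay furthest to the mesothelial side. Its brightest probe set read 2944 in mesothelial and 331.7 in liver cells, 8.88-fold higher. The other 3 read 1251 against 311, 2157 against 316 and 1440.1 against 246. The smallest of the 4 was thus 4.02-fold toward mesothelial cells, with differences from 2.01 to 3.15 and an SD of 0.48 between them. The gene stood at percentile 96.1 of the genes above the floor. Under the other scalings its difference was between 2.38 and 2.72. Besides the mesothelial markers, 6 of 7 stellate, 5 of 7 macrophage and 8 of 8 megakaryocyte markers passed 2-fold to the same side. So did 7 of 9 striated muscle and 3 of 6 endothelial markers above the floor, beside 45.4% of all genes. Relative to the median gene the counts were 5, 3, 5, 6 and 1 in that order, beside 23.1%. The part of these cells in the Ldhb difference was not tested.

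Ldha, the M subunit, differed much less. Its single probe set read 8046 and 4474, a difference of 0.85 that put it at percentile 48.0 of the genes above the floor. The difference of Ldhb exceeded that of Ldha by 2.30, so the ratio of Ldhb to Ldha signal was 4.94-fold higher in mesothelial cells. Such a contrast between isoforms is not moved by a scale factor between the arrays. It was between 1.16 and 2.30 over the 4 pairs of probe sets. The testis form Ldhc was dim, with its brighter probe set at 46.3 and 70.4.

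Pklr (chromosome 3, 89136122 to 89146815) was the isoform furthest to the liver side. Its brightest probe set read 4371 in mesothelial and 6952 in liver cells, a difference of -0.67. The other 2 read 314.6 against 971 and 135 against 451, 3.09-fold and 3.34-fold toward liver cells. So all 3 lay on the same side, and the SD of their differences was 0.59. By its median over probe sets, -1.63, Pklr passed 2-fold toward liver cells, which its brightest probe set did not. Relative to the median gene the brightest lay at -1.33, and the gene stood at percentile 5.86.

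Pkm went the other way. Its single probe set read 3693 in mesothelial and 1204 in liver cells, 3.07-fold higher in mesothelial cells. The ratio of Pklr to Pkm signal was thus 4.88-fold lower in mesothelial cells, a contrast of -2.29, and over the 3 probe set pairs it lay between -3.36 and -2.29. Quantile normalization gave -2.05. Pklr is made by both hepatocytes and red cells, and the markers of these moved differently between the arrays. Of 9 erythroid markers, 7 were brighter by 2-fold or more on the liver array, beside 3.83% of all genes. Among them was Epb42, a red cell membrane protein, at 62.7 against 1146. Of 8 hepatocyte markers, 2 passed 2-fold toward mesothelial and 0 toward liver cells, beside 45.4% and 3.83% of all genes. In both lists 0 were at control level on either array. Relative to the median gene 8 erythroid markers passed 2-fold toward liver cells, beside 9.53% of genes. In that reading 0 hepatocyte markers passed it either way. Albumin (Alb) read 15683 against 12832. The part of red cells and hepatocytes in the Pklr difference was not tested.

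**Figure D2:**
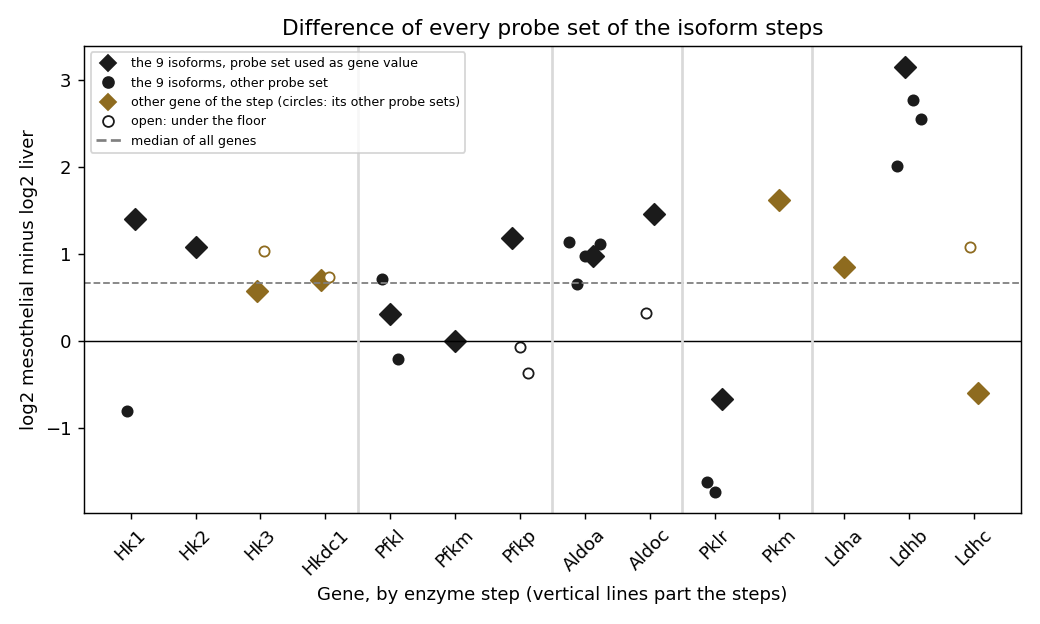
Difference (log2 mesothelial minus log2 liver) of every probe set of the genes of the 5 steps. Diamonds are the probe set used as the gene's value, circles the others, black the 9 isoforms, brown other genes of the step, open symbols probe sets under the floor, and the dashed line the median of all genes, 0.66. Ldhb lies above the line and Pklr below 0 with every probe set.

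The hexokinases trap glucose in the cell as glucose 6-phosphate. For Hk1, the form of most tissues, the probe sets disagreed. The brighter read 1413 in mesothelial and 533 in liver cells, 2.65-fold higher in mesothelial cells. The other read 104.1 and 182.3, 1.75-fold higher in liver cells. The SD between their differences was 1.57, against a pooled SD of 0.70 over the 5323 genes with several probe sets above the floor. Hk1 has a red cell form with its own first exon, and RefSeq gives 2 starts for the gene, 39487 bases apart. Which transcripts each probe set reads was not analysed here.

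Hk2, the hexokinase of muscle and of many growing cells, had a single probe set that read 1286 and 611, 2.11-fold higher in mesothelial cells. Its difference of 1.08 lay 0.41 above the median gene and fell to 0.24 by quantile normalization. The contrast of Hk1 minus Hk2 was 0.33 with the brighter Hk1 probe set and -1.88 with the other, and so had no settled sign. The other measured hexokinases were dim: Hk3, the leukocyte form, read 84.0 and 56.3, and Hkdc1 read 93.7 and 57.6. Both differed by less than 2-fold.

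Phosphofructokinase commits glucose to glycolysis, and its muscle and liver forms were close to even between the arrays. Pfkm, the muscle form (chromosome 15), had a single probe set that read 475.2 and 475.5. As the typical gene was brighter on the mesothelial array, this near equality put Pfkm at -0.66 relative to the median gene, at percentile 16.0. Pfkl, the liver form, read 698.5 and 564.3, and its other probe sets 577.4 against 352.9 and 92.9 against 107.3. Its differences ran from -0.21 to 0.71, with an SD of 0.46, so neither a sign nor a 2-fold difference held over its probe sets.

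Pfkp, the platelet form, rested on 1 probe set, which read 471 in mesothelial and 208 in liver cells, 2.27-fold higher. Its other 2 probe sets were under the floor, at 23.6 against 24.8 and 23.7 against 30.6, where little signal was left to compare. With the brightest probe sets, Pfkm minus Pfkp was -1.18 and Pfkl minus Pfkp -0.87. With the median over all probe sets both contrasts turned sign, and with the median over those above the floor both were as before. Megakaryocyte markers, 0 of them at control level, passed 2-fold toward mesothelial cells in 8 of 8 cases, with platelet factor 4 (Pf4) at 9712 against 3479. Striated muscle markers did so in 7 of the 9 cases above the floor, again with 0 at control level. Of all genes above the floor, 45.4% passed 2-fold to that side. The part of these cells in the Pfkp and Pfkm values was not tested.

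Aldolase splits fructose 1,6-bisphosphate. Aldoa, the form of muscle, red cells and most other tissues, had the smallest SD between probe sets of the isoforms with several. Its brightest probe set read 9274 in mesothelial and 4709 in liver cells, 1.97-fold higher. All 5 probe sets were higher in mesothelial cells, with differences from 0.66 to 1.14 and an SD of 0.19. They all carry a suffix for probes that can cross-hybridise, and the gene stood at percentile 53.7, close to the middle of all genes.

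Aldoc was dim. Its brighter probe set read 181.7 and 65.9, 2.76-fold higher in mesothelial cells, and the other was under the floor at 22.8 and 18.2. Aldoa minus Aldoc was -0.49 with the brightest probe sets, and over the 10 pairs of probe sets 5 had each sign. The 5 positive pairs all used the Aldoc probe set under the floor, and the other 5 lay between -0.81 and -0.33. By their brightest probe sets, 2 of 7 neural markers measured were above the floor. Of these 2, 0 passed 2-fold toward mesothelial or liver cells, beside 45.4% and 3.83% of all genes, a count too small to compare. Sox10, under the floor by its brightest probe set, had 1 other probe set above the floor, which passed 2-fold toward mesothelial cells. The part of neural cells in the Aldoc value was not tested.

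The isoform contrasts can be read against the scatter between probe sets. The pooled SD of 0.70 gives a spread of 0.99 for the difference between 2 genes. The contrasts of Ldhb with Ldha and of Pklr with Pkm were 2.30 and -2.29, and that of Pfkm with Pfkp -1.18. The other 4, of Hk1 with Hk2, Pfkl with Pfkm, Pfkl with Pfkp and Aldoa with Aldoc, were smaller than that spread. Among the 7 contrasts, those of Ldhb and Pklr were the ones in which every probe set pair had 1 sign when probe sets under the floor were counted. With those left out, Pfkl minus Pfkp, Pfkm minus Pfkp and Aldoa minus Aldoc also had 1 sign, negative in 3 of 3, 1 of 1 and 5 of 5 pairs. This scatter compares probe sets on the same arrays, and variation between embryos, sorts or amplifications is not part of it.

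**Figure D3:**
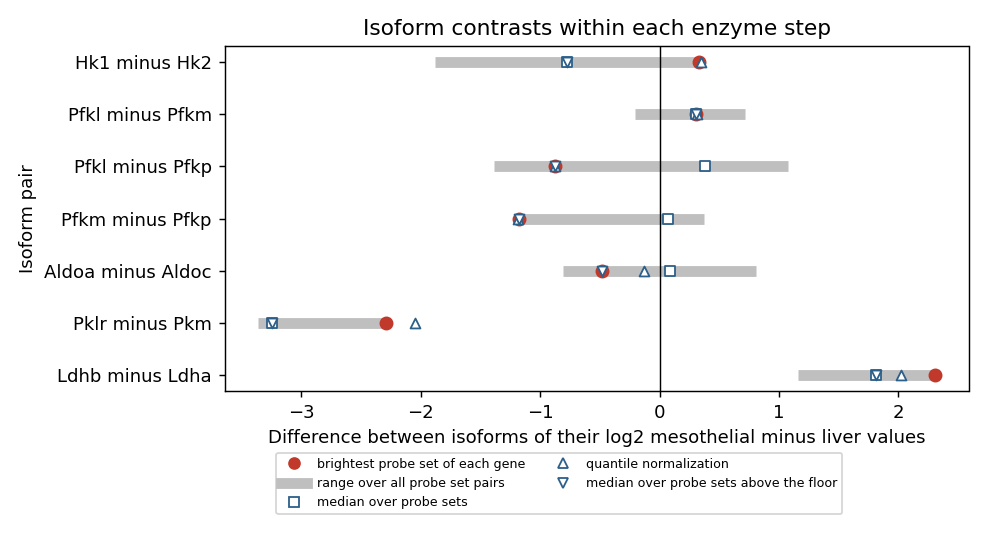
Each isoform contrast, as the log2 difference of the first gene minus that of the second. The filled point uses the brightest probe set of each gene, the grey bar spans all probe set pairs, and open symbols are 3 alternatives. Pklr minus Pkm, at -2.29, and Ldhb minus Ldha, at 2.30, stay on their side of 0, and the bars of the other pairs reach across it.

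The whole pathway reached further in both directions than most of the isoforms. Of 28 genes listed for glycolysis, 23 were measured with a median difference of 0.98, and of 21 above the floor 10 passed 2-fold toward mesothelial cells and 1 toward liver cells, shares near the 45.4% and 3.83% of all genes. Relative to the median gene these counts were 3 and 3, beside 23.1% and 9.53%. The gene furthest to the mesothelial side was Eno2, the enolase best known from neurons, whose single probe set read 530.2 against 36.3, 14.6-fold higher. Pgam2, the muscle phosphoglycerate mutase, read 136.5 against 34.1. Pgk1, a phosphoglycerate kinase of most tissues, was 2.54-fold higher, at 8332 against 3282, with its 3 probe sets between 1.34 and 1.71.

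Bpgm lay furthest to the liver side. It encodes the enzyme that makes 2,3-bisphosphoglycerate in red cells, and it read 625 in mesothelial and 3091 in liver cells, 4.95-fold higher in liver cells. All 3 probe sets of Bpgm were beyond 2-fold, with differences from -3.60 to -2.31, beside the 7 of 9 erythroid markers given above. The part of red cells in this difference was not tested.

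Regulators of glycolysis and of pyruvate use mostly read brighter on the mesothelial array, as did most genes. Of 8 regulators above the floor 5 passed 2-fold toward mesothelial cells and 0 toward liver cells, beside 45.4% and 3.83% of all genes. Relative to the median gene 1 was beyond 2-fold, to the mesothelial side, beside 23.1% of all genes. That was Pdk2, a kinase that turns off pyruvate dehydrogenase, at 165.8 against 34.2. Gckr read 353.6 against 121, 2.92-fold higher, and Pfkfb3, which makes an activator of phosphofructokinase, read 288.6 against 113.4. Of 5 genes of pyruvate entry into mitochondria, Pdhb and Dlat, parts of the pyruvate dehydrogenase complex, passed 2-fold toward mesothelial cells, a share near that of all genes, and relative to the median gene 0 were beyond 2-fold either way.

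Few genes of gluconeogenesis, the reverse route, were bright. Of 6 measured, 2 were above the floor, beside 12018 of all 18193 genes. Pcx, pyruvate carboxylase, read 143 in mesothelial and 315 in liver cells by its single probe set, 2.20-fold higher in liver cells. The array's control probe sets for pyruvate carboxylase did not share this size. That of the 3′ end read 134.2 and 182.5, and the others, all dimmer, differed by 0.40, 0.53 and 0.66 toward mesothelial cells. Pck2, the mitochondrial form of its step, read 1183 and 707, and its 2 probe sets differed by 0.74 and 1.38 toward mesothelial cells. G6pc, glucose 6-phosphatase, was at control level on both arrays, at 8.3 and 9.8, and Pck1, the cytosolic form, read 10.0 and 11.4. Control level here is the brightest of 27 probe sets for bacterial genes that the samples lack, 16.2 in mesothelial and 10.5 in liver cells.

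**Figure D4:**
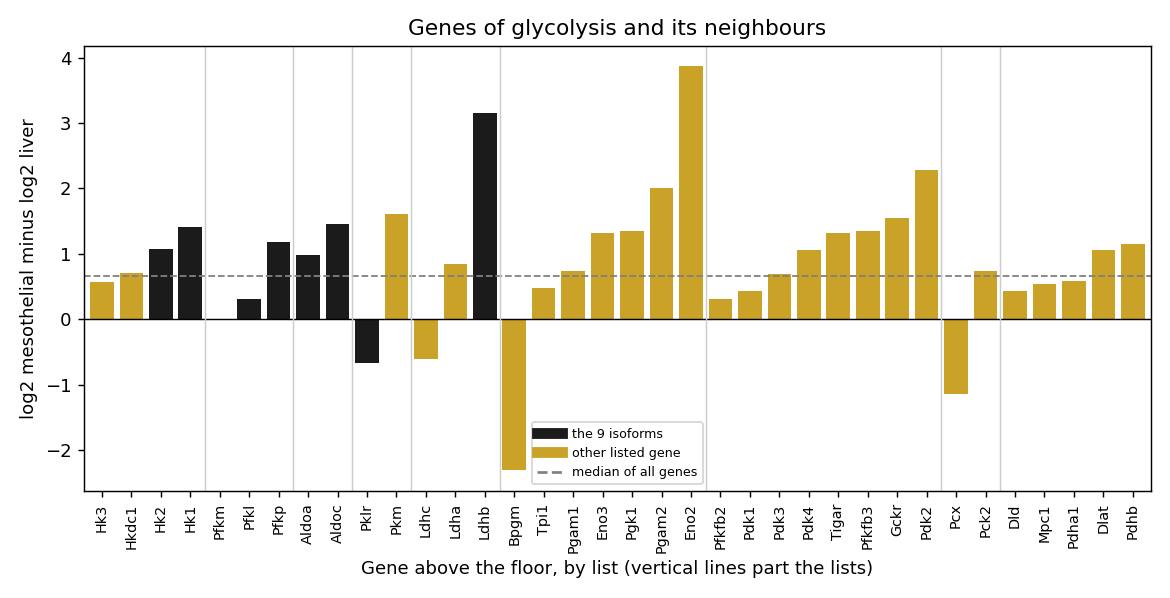
Difference (log2 mesothelial minus log2 liver) of each gene above the floor in the lists for the 5 isoform steps, the other glycolytic steps, regulators, gluconeogenesis and pyruvate entry, from left to right. Black bars are the 9 isoforms and the dashed line is the median of all genes, 0.66. Eno2 at 3.87 and Ldhb at 3.15 reach furthest up and Bpgm at -2.31 furthest down.

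Several glycolytic genes are known targets of the hypoxia-inducible factors, so a list of hypoxia response genes was read beside them. All 12 were above the floor, 8 passed 2-fold toward mesothelial cells and 0 toward liver cells, with a median of 1.66, beside 45.4% and 3.83% of all genes. Relative to the median gene 6 were beyond 2-fold to the mesothelial side, beside 23.1%. Egln3, an oxygen-sensing hydroxylase, was 10.3-fold higher, at 383.7 against 37.1. By its brightest probe set Hif3a differed least, by 0.12, and its 6 probe sets ran from -0.22 to 1.07. Hif1a itself read 4600 against 1396, with 4 probe sets from -0.68 to 2.13. Of the 9 isoforms, those with ACGTG in a window (Hk2, Aldoa and Pfkm) had differences of 1.08, 0.98 and 0.00. Those with no match ran from -0.67 for Pklr to 3.15 for Ldhb. The part of hypoxia in any of these differences was not tested.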

How the data were processed

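RNA of mesothelial cells and of liver cells of E12.5 mouse livers was amplified from 20 ng and hybridised to 1 Affymetrix mouse array each, per the labels' protocols and the design text. The authors deposited 1 linear intensity per probe set, a scale read from the range of the values. RMA and Partek are named in the submitters' processing notes, without version, role or order, and any scaling between arrays is not stated there. A description in the labels speaks of a far earlier stage, and the age of E12.5 was used.

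With Python 3.11.15 and pandas 2.3.3, log2 was taken and 34945 non-control probe sets with 1 gene symbol were kept (932 had several and 9160 none). A gene took its probe set of highest mean log2 intensity. The floor was first set on the array of a gene's brighter value, which kept 11905 genes, and was moved to either array, which keeps 12018, after those counts had been seen. The isoform counts, 5 and 0, are equal under both. Some genes are not reported here. The 9 isoforms matched their RefSeq gene IDs. The calculation was tested on simulated data with changes of 4-fold or more and less scatter between probe sets than here. That checks the arithmetic and not the precision of smaller differences.

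The isoforms, gene lists and motifs were chosen with earlier results of these data known, and AGATAA after the values were seen. Named were the 9 isoforms, other isoforms of their steps, and up to 3 extremes a side of each pathway list. Hif1a, G6pc, Pck1 and the markers shown were picked after their values were seen. Alternatives were other probe set rules, scalings, floors and thresholds. Precision is limited by the number of arrays.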

Additional observations from a re-analysis of the deposited data

How the results depend on the processing

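The contrasts of Ldhb with Ldha (1.81 to 2.30) and of Pklr with Pkm (-3.24 to -2.05) kept their sign in every alternative that could be run. With the median over probe sets, Hk1 minus Hk2 became -0.78 (also over the probe sets above the floor, an alternative chosen after seeing the data), Pfkl minus Pfkp 0.38 and Pfkm minus Pfkp 0.071, and Pfkp itself went from 1.18 to -0.072. The 2 dim Pfkp probe sets set that median. The smaller contrasts of Pfkl with Pfkm and Aldoa with Aldoc also changed sign, to -0.21 without probe sets with an _s, _x or _a suffix and to 0.08 with the median.

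The 5 isoforms at least 2-fold higher in mesothelial cells became 2 with the median over probe sets, 2 without probe sets with an _s, _x or _a suffix (a filter that left no probe set of Hk1, Aldoa, Ldhb or Ldha), 2 after removing the reference gene difference, and 1 by quantile normalization, by centring on the array medians, or at 4-fold. In that order, 38.4%, 44.0%, 29.3%, 20.7%, 23.9% and 15.9% of all genes above the floor were past the same limit. The 0 higher in liver cells became 1 with either median over probe sets and with each of the 3 scalings, and in each case this was Pklr. Of all genes, 3.46% and 3.97% passed 2-fold to that side with the 2 medians. Under the scalings it was between 6.71% and 11.1%.

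Over all genes, 5457 and 460 were past 2-fold toward mesothelial and liver cells. These were 2489 and 1333 by quantile normalization, 2867 and 1112 after centring, 3523 and 807 after removing the reference gene difference, 1915 and 129 at 4-fold, and 6584 and 756 with no floor. The floor as first set gave 45.8% and 3.86% of genes past 2-fold, beside 45.4% and 3.83%. No paired analysis was possible because each group had 1 array, and no array could be left out. Low values limit Aldoc and Pfkp.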

Other observations

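A further probe set named for Hk1 was not used, because its annotation names 6 genes, most of them copies of the ribosomal protein gene Rpl17. It read 14854 in mesothelial and 11364 in liver cells, a difference of 0.39. The glycolytic enzyme gene Gapdh was named alone by control probe sets only. Its 3 control probe sets, from the 3′ end, the middle and the 5′ end of the transcript, differed by 0.58, 0.59 and 0.44 toward mesothelial cells, slightly under the median of all genes, 0.66.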
